A study of Mus musculus with 6 samples.

Results

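Expression of 10 genes that encode the muscle intermediate filaments and the PDZ-LIM and linker proteins of the Z-disc was examined in mouse quadriceps muscle after deletion of *Dnm1l*. The genes were *Des*, *Synm*, *Sync*, *Vim*, *Ldb3*, *Pdlim3*, *Pdlim5*, *Pdlim7*, *Myot* and *Tcap*. They were chosen by symbol, and each has 1 row among the 27179 genes counted in every library. RNA-seq was performed on 3 control and 3 miDrp1KO libraries, taken 3 weeks after deletion from mice on a normal chow diet. The miDrp1KO mice carry floxed *Dnm1l*, the gene of the mitochondrial fission protein Drp1, and HSA-MerCreMer, a Cre recombinase that is driven by the human skeletal actin (*ACTA1*) promoter and needs tamoxifen to act. Control mice are labelled Control f/f, while the study's methods describe controls as flox/+ or flox/flox. Mice of either group were given tamoxifen at 3 months of age. This promoter is active in muscle fibres and not in the other cells of the muscle, and the sequenced RNA comes from the whole tissue.

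In a muscle fibre, intermediate filaments run between neighbouring Z-discs and join them to the sarcolemma, the nuclei and the mitochondria. Desmin forms these filaments, synemin and syncoilin attach to them, and vimentin takes the place of desmin in fibroblasts, endothelial cells and immature muscle cells. The Z-disc itself is built on alpha-actinin, to which the PDZ-LIM proteins bind through a PDZ domain, while their LIM domains hold kinases and other partners. Mutations of desmin, of the *Ldb3* product ZASP and of myotilin cause myofibrillar myopathies, and mutations of telethonin cause a limb-girdle muscular dystrophy.

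*Dnm1l* was measured first as a check of the labels. It stood at 156, 114 and 140 CPM (the CPM of edgeR, computed with TMM library sizes) in control replicates 1, 2 and 3 and 70.6, 81.3 and 66.2 CPM in miDrp1KO replicates 1, 2 and 3. Every miDrp1KO library was lower than every control library, at 53.2% of the control mean. Libraries held 13989588 to 62042255 counts. Ribosomal RNA genes took 3.36 to 15.6% of the counts in control libraries and 1.48 to 24.4% in miDrp1KO libraries. The summed level of 8 muscle fibre markers was 137582 to 152665 CPM in control and 65862 to 114085 CPM in miDrp1KO libraries, and none of the 8 was at 0 in all libraries.

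The promoters of 4 of the genes are shown to set the gene that forms the filament, *Des*, and its counterpart in non-muscle cells, *Vim*, beside the 2 members with the lowest p, *Synm* and *Ldb3*. Sequences are from RefSeq on GRCm38.p6, which held an entry for 8 of the 10 genes. Each covers 250 bases before to 50 bases after a transcript start and is written 5′ to 3′ on the strand of the gene. They are the *Des* promoter at chr1:75360042-75360341 on the plus strand, the *Synm* promoter at chr7:67759693-67759992 on the minus strand, the *Ldb3* promoter at chr14:34588632-34588931 on the minus strand and the *Vim* promoter at chr2:13574061-13574360 on the plus strand. The start is the first base of the span RefSeq gives for the gene in *Des*, *Synm* and *Vim*, whereas in *Ldb3* it lies 1633 bases inside that span. Bases after the start were found in a GENCODE transcript of the gene for *Synm*, *Ldb3* and *Vim*, but not for *Des*. Capitals mark matches, on either strand, to the E-box CANNTG, the TATA box TATAAA, or the MEF2 or CArG motif.
Des: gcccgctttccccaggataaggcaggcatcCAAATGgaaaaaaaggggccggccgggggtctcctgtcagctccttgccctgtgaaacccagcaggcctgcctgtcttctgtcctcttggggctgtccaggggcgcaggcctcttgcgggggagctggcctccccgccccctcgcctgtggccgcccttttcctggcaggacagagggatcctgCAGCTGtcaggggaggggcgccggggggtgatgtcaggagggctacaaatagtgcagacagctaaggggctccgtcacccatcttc
Synm: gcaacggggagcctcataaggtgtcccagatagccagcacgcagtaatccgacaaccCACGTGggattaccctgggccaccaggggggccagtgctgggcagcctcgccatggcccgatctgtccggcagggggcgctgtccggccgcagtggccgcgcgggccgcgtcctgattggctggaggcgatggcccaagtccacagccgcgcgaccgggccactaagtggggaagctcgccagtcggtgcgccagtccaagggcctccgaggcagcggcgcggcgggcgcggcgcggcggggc
Ldb3: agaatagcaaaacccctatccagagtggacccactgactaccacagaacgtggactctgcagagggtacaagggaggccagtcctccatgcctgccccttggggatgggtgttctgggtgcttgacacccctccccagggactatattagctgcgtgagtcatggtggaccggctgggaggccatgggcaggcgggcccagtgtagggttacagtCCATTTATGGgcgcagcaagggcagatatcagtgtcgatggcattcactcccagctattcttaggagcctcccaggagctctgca
Vim: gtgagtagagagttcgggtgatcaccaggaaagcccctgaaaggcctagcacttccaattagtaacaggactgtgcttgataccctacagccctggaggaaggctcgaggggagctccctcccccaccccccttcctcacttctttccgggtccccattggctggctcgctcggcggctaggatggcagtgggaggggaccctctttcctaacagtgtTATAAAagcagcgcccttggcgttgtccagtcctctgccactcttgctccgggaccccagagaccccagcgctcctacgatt

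The *Des* window held 2 E-boxes and the *Synm* window 1 E-box. An E-box of this kind was present in 72.1% of all 27025 promoters of the same length. *Ldb3* held 1 CArG match, a motif found in 1.57% of all promoters, and *Vim* held 1 TATA box, found in 14.2%. None of the 4 windows held a MEF2 match, which 3.26% of all promoters did. A match says only that the letters are present in the window.

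All 10 genes passed the filter on low counts and were tested. In 9 of them the level was lower in miDrp1KO than in control muscle, and *Vim* was the exception. The median log2 fold change over the 10 was −0.26, beside 0.02 over all 16483 genes tested. After Benjamini-Hochberg adjustment of the p-values of edgeR's quasi-likelihood test, 0 members were under 0.05, a threshold that 0.0121% of all tested genes passed. At an unadjusted p under 0.05, 2 of the 10 were lower, *Synm* and *Ldb3*, and 0 were higher. Over all tested genes 6.22% were lower at that threshold, and 10.9% differed in either direction. In 4 members, *Synm*, *Ldb3*, *Pdlim5* and *Tcap*, every miDrp1KO library was below every control library, which was so for 10.3% of all tested genes. In 18.0% of all tested genes the groups did not overlap in either direction. With DESeq2 at its default settings, 1 member, *Synm*, had an adjusted p under 0.05, beside 1.18% of the genes to which DESeq2 gave an adjusted p. Of the 8 muscle fibre markers 7 were also lower in miDrp1KO muscle, 1 of the 8 with an unadjusted p under 0.05 in edgeR's test, and their part in the levels of the members was not tested. In bulk muscle, fewer cells of a type and less RNA per cell cannot be told apart.

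**Figure D1:**
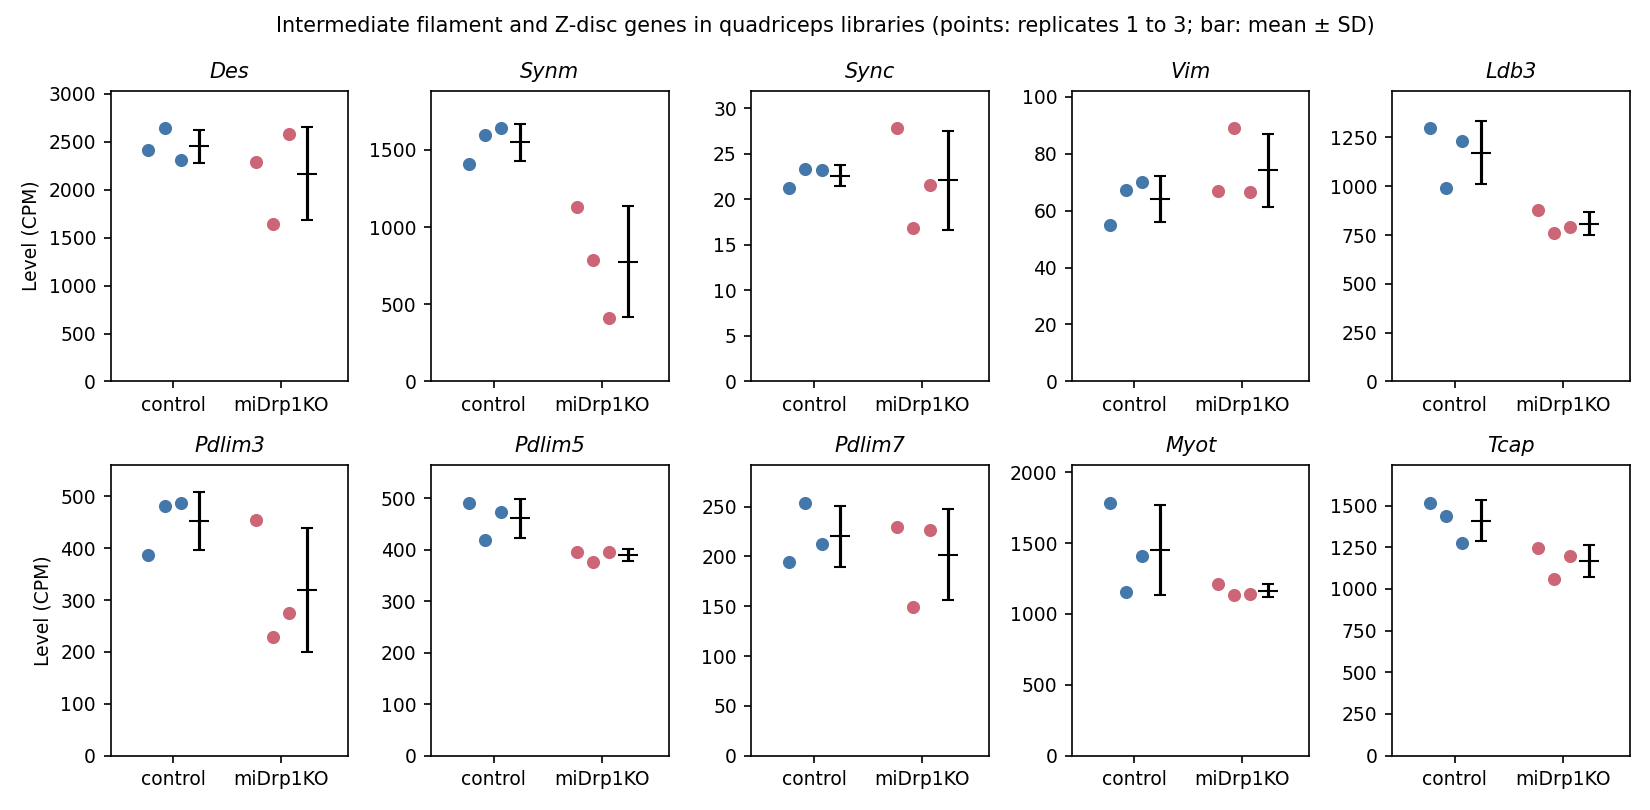
Level of each of the 10 genes in CPM, 1 panel per gene with axes from 0; points are replicates 1 to 3 of each group and bars give the mean ± SD (n = 3). The groups are separate in *Synm*, *Ldb3*, *Pdlim5* and *Tcap*, and *Synm* spreads from 411 to 1131 CPM among miDrp1KO libraries.

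Among the intermediate filament genes, the difference between the groups was largest in *Synm*. *Synm* (Entrez 233335, chromosome 7 of GRCm38, 67730161 to 67759742, minus strand) encodes synemin, a large filament protein that cannot form filaments by itself and links desmin to the sarcolemma and the Z-disc. Control replicates 1, 2 and 3 held 1408, 1597 and 1639 CPM. The miDrp1KO replicates 1, 2 and 3 held 1131, 785 and 411 CPM. The control libraries lay close together, and the miDrp1KO libraries were all lower but unlike each other, with a 2.75-fold range. Control muscle averaged 1548 ± 123 CPM and miDrp1KO muscle 776 ± 360 CPM (SD, n = 3 each), or 50.1% of control. For *Synm*, the quasi-likelihood test of edgeR gave a log2 fold change of −0.997 (standard error 0.33), with an unadjusted p of 0.0112 and a Benjamini-Hochberg adjusted p of 0.382. A two-sided exact permutation test gave p = 0.1, the smallest that 3 libraries against 3 allow. Without miDrp1KO replicate 3 the log2 fold change was −0.67, and it stayed negative with an unadjusted p under 0.05 in all 21 alternatives.

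Whether *Synm* was called depended on how DESeq2 was run. A DESeq2 test with independent filtering was planned, but neither its genes nor its filtering alpha were, and 6 settings were run with the adjusted p of *Synm* in view. They differed in the genes given to the tool and in its independent filtering, which sets aside genes of low mean. The adjusted p of *Synm* ran from 0.0279 to 0.133 over these DESeq2 settings and was under 0.05 in 3 of the 6. At the defaults of DESeq2 it was 0.0453, and 0.133 with the same genes and no independent filtering. It was above 0.05 in every other alternative.

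*Des* (Entrez 13346, chromosome 1, 75360292 to 75368579, plus strand), the gene of desmin, was measured at 2411, 2640 and 2308 CPM in control replicates 1, 2 and 3 and at 2291, 1640 and 2578 CPM in miDrp1KO replicates. Replicate 2 of miDrp1KO was far below the controls and replicate 1 just below the lowest of them, while replicate 3 lay inside the control range, so the groups overlapped. The difference in *Des* was, by the quasi-likelihood test of edgeR on the log2 scale, −0.18 (standard error 0.26), with a Benjamini-Hochberg adjusted p of 0.836. Without miDrp1KO replicate 2 the value for *Des* was −0.0076. *Sync* (Entrez 68828, chromosome 4, 129287256 to 129309383, plus strand), whose product syncoilin binds desmin and alpha-dystrobrevin, was at 21.3, 23.4 and 23.2 CPM in control and at 27.8, 16.9 and 21.5 CPM in miDrp1KO libraries. The miDrp1KO libraries spanned the control range on either side, and the log2 fold change was −0.04 (standard error 0.19).

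*Vim* (Entrez 22352, chromosome 2, 13574311 to 13582826, plus strand) was the member with a higher mean in miDrp1KO muscle. Vimentin mRNA was at 55.1, 67.4 and 70.0 CPM in control replicates and at 67.1, 88.9 and 66.4 CPM in miDrp1KO replicates. Only miDrp1KO replicate 2 stood above the controls, and the others lay within the control range. For *Vim*, the quasi-likelihood test of edgeR gave a log2 fold change of 0.21 (standard error 0.18), with a Benjamini-Hochberg adjusted p of 0.705. Without miDrp1KO replicate 2 the value for *Vim* was 0.06, and without control replicate 1 it was 0.13. The summed level of 6 fibroblast markers was 1218 to 1714 CPM in control and 1347 to 2291 CPM in miDrp1KO libraries, highest in the same miDrp1KO replicate 2. All 6 fibroblast markers had a positive log2 fold change, and none had an unadjusted p under 0.05. The summed level of 6 macrophage markers was 125 to 236 CPM in control and 205 to 216 CPM in miDrp1KO libraries. Of the 6 macrophage markers 4 had a positive log2 fold change, 2 of them with an unadjusted p under 0.05 in edgeR's test. *C1qa*, a complement gene of macrophages, was at 14.3, 23.5 and 14.4 CPM in control and 26.2, 28.5 and 26.2 CPM in miDrp1KO libraries, chosen after its values were seen. The other 2 of the 6 had a negative log2 fold change. *Adgre1* was at 4.36, 11.4 and 5.88 CPM in control and 6.61, 7.60 and 6.24 CPM in miDrp1KO libraries. *Mrc1* was at 43.7, 75.9 and 49.2 CPM in control and 62.4, 52.6 and 52.0 CPM in miDrp1KO libraries. In both genes the miDrp1KO libraries lay within the control range. Endothelial markers summed to 155 to 278 CPM in control and 162 to 252 CPM in miDrp1KO libraries, with 4 of the 6 lower and 0 at an unadjusted p under 0.05. Markers of satellite cells and regenerating fibres summed to 2235 to 2571 CPM in control and 512 to 1869 CPM in miDrp1KO libraries, and most of that sum was *Myh8*, a developmental myosin heavy chain. In that list 2 of the 6 were lower and 4 higher, and 1 had an unadjusted p under 0.05. Adipocyte markers summed to 301 to 421 CPM in control and 226 to 275 CPM in miDrp1KO libraries, with all 5 lower and 2 of them at an unadjusted p under 0.05. Schwann cell markers summed to 14.9 to 31.5 and 20.1 to 36.9 CPM, with 5 of 6 higher and 0 at that threshold. The part of these cells in the level of *Vim* was not tested.

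**Figure D2:**
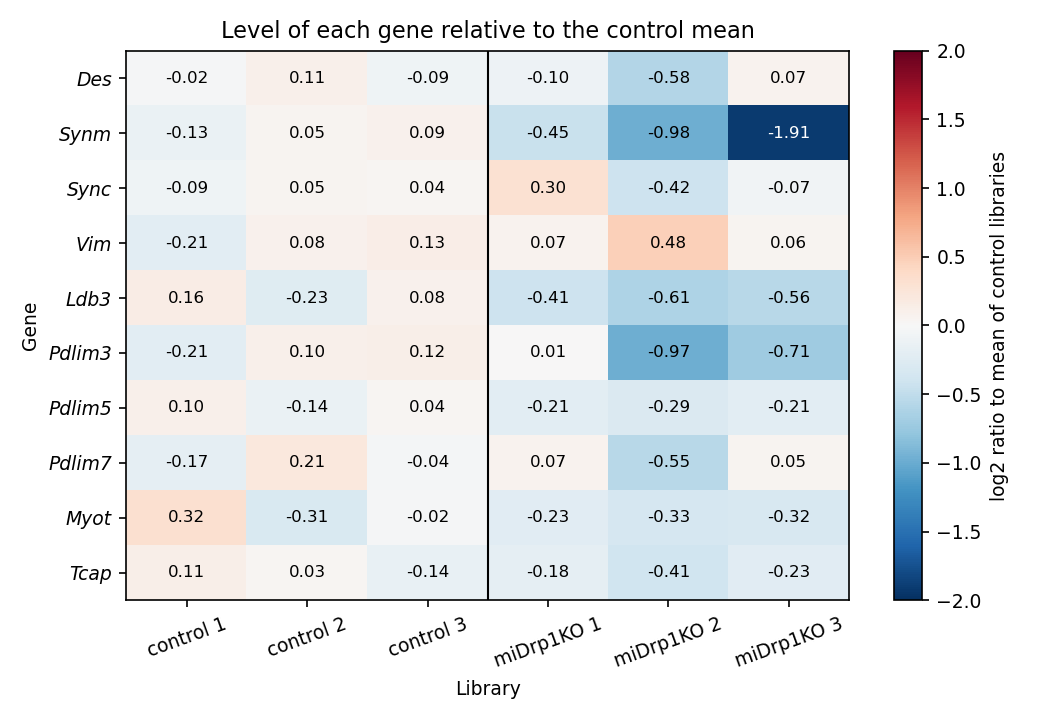
Log2 ratio of each library's level to the mean log2 level of the 3 control libraries, for each of the 10 genes (rows) in each library (columns). Replicate 2 of miDrp1KO is below the control mean in 9 genes and above it in *Vim*, and the most negative value, −1.91, is *Synm* in miDrp1KO replicate 3.

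Of the 4 PDZ-LIM members, *Ldb3* alone had an unadjusted p under 0.05 in edgeR's test. *Ldb3* (Entrez 24131, chromosome 14, 34526699 to 34590314, minus strand) encodes ZASP, also called Cypher, which binds alpha-actinin and holds protein kinase C at the Z-disc. Controls 1, 2 and 3 held 1296, 989 and 1229 CPM, against 877, 760 and 790 CPM in miDrp1KO replicates 1, 2 and 3. All miDrp1KO libraries were below the lowest control, and they varied less than the controls did. Averages were 1171 ± 162 and 809 ± 60.5 CPM (SD, n = 3 each), so miDrp1KO muscle held 69.1% of the control level. The difference in *Ldb3* was, by the quasi-likelihood test of edgeR on the log2 scale, −0.53 (standard error 0.22), with an unadjusted p of 0.0313 and a Benjamini-Hochberg adjusted p of 0.417. The unadjusted p rose above 0.05 without control replicate 1 (0.120), without control replicate 3 (0.124) and without miDrp1KO replicate 2 (0.0827) in the same edgeR test.

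*Pdlim3* (Entrez 53318, chromosome 8, 45885487 to 45919635, plus strand) encodes ALP, the alpha-actinin-associated LIM protein. Levels were 388, 481 and 488 CPM in controls 1, 2 and 3 and 454, 229 and 275 CPM in miDrp1KO replicates 1, 2 and 3. Replicates 2 and 3 of miDrp1KO were below all controls, while replicate 1 lay inside the control range. For *Pdlim3*, the quasi-likelihood test of edgeR gave a log2 fold change of −0.50 (standard error 0.26), with an unadjusted p of 0.0816 and a Benjamini-Hochberg adjusted p of 0.519. Without miDrp1KO replicate 1 it was −0.82, with an unadjusted p of 0.00226 and an adjusted p of 0.101 in edgeR's test. Over all genes, 17.5% had an unadjusted p under 0.05 in that fit, against 10.9% with every library. Without miDrp1KO replicate 2 the value for *Pdlim3* was −0.32.

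Slow fibre markers were high where *Pdlim3* was low. All 8 had a positive log2 fold change, and 0 of the 8 had an unadjusted p under 0.05 in edgeR's test. Their summed level, in which *Myh7* and *Tnnt1* are included, was 480, 72.9 and 107 CPM in control replicates 1, 2 and 3 and 99.5, 793 and 713 CPM in miDrp1KO replicates 1, 2 and 3. The libraries with the highest slow fibre sum were control replicate 1 and miDrp1KO replicates 2 and 3, and the same 3 had the lowest *Pdlim3* and also the lowest *Sync*. The level of *Myh4*, the fastest myosin heavy chain, was 49885, 58256 and 62914 CPM in control and 40363, 17190 and 12241 CPM in miDrp1KO libraries. Not every marker of the muscle fibre list followed it, as 7 of the 8 were lower and 1 was higher. *Pvalb*, of the same list, was at 5068, 9227 and 8208 CPM in control and 8488.5, 5911 and 8545 CPM in miDrp1KO libraries, with overlapping groups. With a slow fibre score as a covariate, the log2 fold change of *Pdlim3* was −0.29 (unadjusted p = 0.148 in edgeR's test), that of *Synm* −0.81 (0.0127) and that of *Ldb3* −0.55 (0.0219). That of *Sync* was positive, at 0.094.

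**Figure D3:**
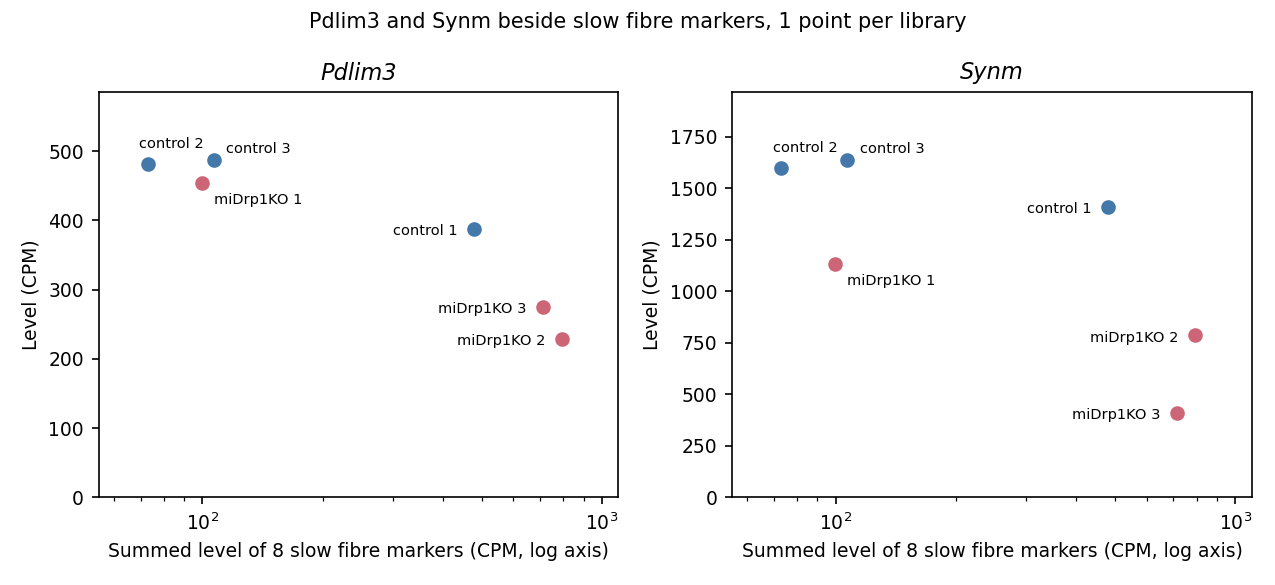
Level of *Pdlim3* and *Synm* in CPM against the summed CPM of 8 slow fibre markers on a log axis, 1 labelled point per library. The 3 libraries with the highest slow fibre sums have the 3 lowest *Pdlim3* levels, whereas *Synm* is at 1131 CPM in miDrp1KO replicate 1, where the sum is 99.5 CPM.

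*Pdlim5* (Entrez 56376, chromosome 3, 142239585 to 142395719, minus strand) encodes ENH, which carries LIM domains that bind protein kinase C. Its level was 491, 418 and 473 CPM in control and 396, 375 and 396 CPM in miDrp1KO replicates 1, 2 and 3. The groups did not overlap, although the gap between the lowest control and the highest miDrp1KO library was small. The difference in *Pdlim5* was, by the quasi-likelihood test of edgeR on the log2 scale, −0.24 (standard error 0.19), with a Benjamini-Hochberg adjusted p of 0.663. *Pdlim7* (Entrez 67399, chromosome 13, 55497487 to 55513473, minus strand), which encodes Enigma, was at 194, 254 and 213 CPM in control and at 230, 150 and 226 CPM in miDrp1KO libraries. Replicate 2 of miDrp1KO was again the lowest, and the other miDrp1KO replicates lay among the controls. Its log2 fold change was −0.13 (standard error 0.22).

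The remaining members are a Z-disc structural protein and a titin cap. *Tcap* (Entrez 21393, chromosome 11, 98383811 to 98384953, plus strand) encodes telethonin, which ties the ends of titin molecules together at the Z-disc. Its level was 1517, 1438 and 1274 CPM in control and 1243, 1061 and 1198 CPM in miDrp1KO replicates 1, 2 and 3. All miDrp1KO libraries were below all controls, the closest being control replicate 3 and miDrp1KO replicate 1. For *Tcap*, the quasi-likelihood test of edgeR gave a log2 fold change of −0.27 (standard error 0.22), with a Benjamini-Hochberg adjusted p of 0.676. *Myot* (Entrez 58916, chromosome 18, 44334053 to 44355740, plus strand) encodes myotilin, which binds alpha-actinin, filamin C and actin. It was measured at 1785, 1153 and 1410 CPM in control and at 1215, 1135 and 1140 CPM in miDrp1KO libraries. Control replicate 1 was far above the rest, and miDrp1KO replicate 1 exceeded control replicate 2, so the groups overlapped. The log2 fold change was −0.32 (standard error 0.24), and it was −0.12 without control replicate 1 and −0.48 without control replicate 2.

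**Figure D4:**
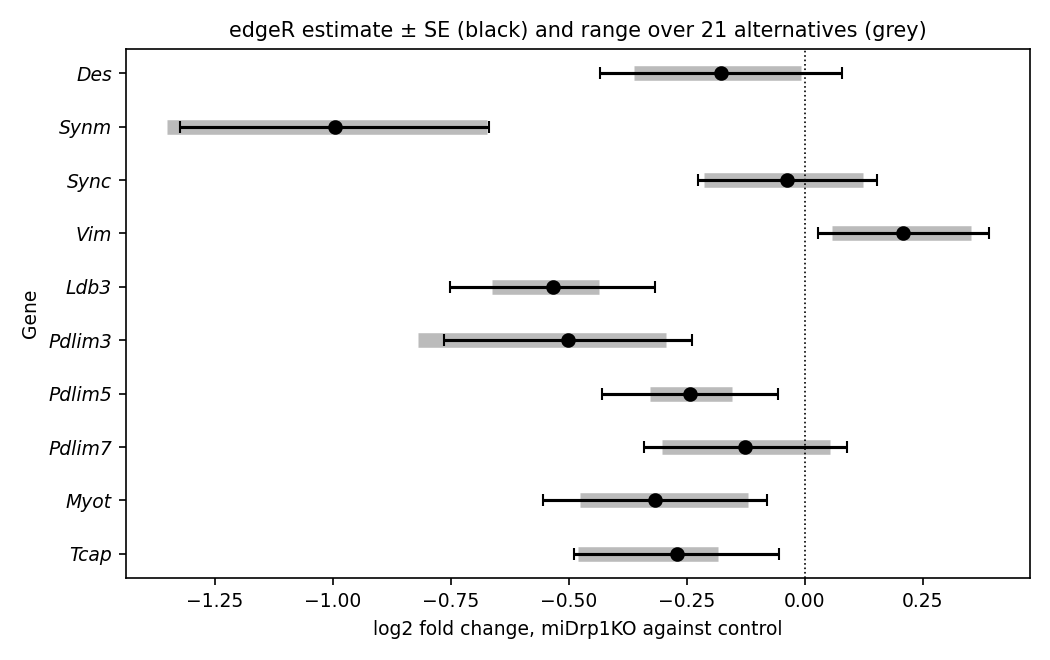
Log2 fold change of each of the 10 genes, miDrp1KO against control, from edgeR; points are estimates, black bars ± 1 standard error and grey bars the range over 21 alternative settings. The ranges of *Sync* and *Pdlim7* cross 0, those of the other 7 genes with a negative estimate stay below it and that of *Vim* stays above it.

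To compare levels between genes, CPM were divided by exon length in kilobases. This length joins the exons of all GENCODE transcripts of a gene and can exceed the length of its mRNA. Ratios between genes depend on that choice. In control muscle *Tcap* was highest at 1487 CPM per kb, with *Myot* at 656 and *Des* at 653 CPM per kb. *Myot* and *Des* could not be ordered, since their control libraries overlapped. *Synm* at 195 and *Ldb3* at 192 CPM per kb also overlapped, and *Pdlim3* followed at 87.8 CPM per kb. *Pdlim5* at 51.9 and *Pdlim7* at 45.4 CPM per kb overlapped, and *Vim* (13.5) and *Sync* (7.91 CPM per kb) were the lowest. On this scale desmin mRNA exceeded synemin mRNA 3.35-fold in control muscle. In miDrp1KO muscle the means were 578 CPM per kb for *Des* and 97.8 CPM per kb for *Synm*.

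*Synm* is one of the longer members, with 7933 exon bases. In miDrp1KO replicate 3, the library with the lowest *Synm*, genes of up to 3354 exon bases had a median log2 ratio of 0.19 to the mean of the control libraries, and genes of 5896 bases or more had a median of −0.17. In the other 5 libraries these medians lay between −0.03 and 0.03. After a correction for this trend, chosen after the data had been seen, the log2 fold change was −1.03 in *Synm* (unadjusted p = 0.00553 in edgeR's test) and −0.55 in *Ldb3*. *Tcap*, which at 948 exon bases is the shortest member, moved from −0.27 to −0.48 (unadjusted p = 0.0509 in edgeR's test).

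Some members share exons with other genes, and the strand setting of the counting is not given in the sources used here. *Synm* overlaps *Ttc23* on the opposite strand, which was at 12.6, 12.8 and 14.1 CPM in control and at 12.0, 11.2 and 8.01 CPM in miDrp1KO libraries, far below *Synm*. *Synm* also shares exon bases with *Gm45102* on the opposite strand, for which no level is given here. *Sync* overlaps *Rbbp4* on the opposite strand, with a log2 fold change of 0.01 at a higher level than *Sync* itself. *Des* overlaps the antisense gene *Gm15179* and *Pdlim7* the microRNA gene *Mir6945*, so that reads on the shared bases are uncertain.

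The members were also compared with each other over the 6 libraries, as a description in which all pairs share library depth and composition. *Ldb3* and *Pdlim5* followed each other most closely of the 45 pairs (Pearson's r = 0.98, Spearman's rho = 0.94, n = 6 libraries). Within groups r was 0.95 for this pair, and 0.91 without the 2 libraries farthest from the median of *Ldb3*. *Des* and *Pdlim7* had r = 0.91, which fell to 0.04 without such a pair of libraries and so rests on them. *Vim* correlated negatively with all 9 other members, with a median r of −0.66, while the median r over the other 36 pairs was 0.61. Within groups 8 of the 9 correlations with *Vim* were negative, with a median of −0.54, and the median of the other pairs was 0.24. Without control replicate 1 and miDrp1KO replicate 2, the libraries farthest from the median of *Vim*, 6 of its 9 correlations were positive over the remaining 4 libraries, with a median of 0.62. *Des* (−0.52), *Pdlim7* (−0.54) and *Sync* (−0.04) kept a negative r with *Vim*.

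Genes most like a member were sought among 7168 genes with a mean of at least 10 CPM. Over the 6 libraries, those closest to *Des* were *Clptm1* (r = 0.996), *Ppp1cc* (0.985), *Gga1* (0.98), *Gyg* (0.98), which encodes glycogenin, and *Tuba4a* (0.98), which encodes an alpha-tubulin. Among those closest to *Vim* were *Glce* (0.97), *Zfp36l2* (0.97), *Trove2* (0.97) and *Idh1* (0.96). These are the highest of 7168 values of r for each gene, over only 6 libraries, and were picked for being high. They were not tested, and no library was left out in this search.

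Partners of the intermediate filaments were examined next, a list of 15 genes of which 13 were tested. In miDrp1KO muscle 10 of the 13 were lower, 3 of them with an unadjusted p under 0.05, and 1 was higher at that threshold, with a median log2 fold change of −0.14. By edgeR 0 had an adjusted p under 0.05, whereas DESeq2 at its defaults called 1, *Plec*, as lower. *Plec* encodes plectin, which links desmin to Z-discs, mitochondria and the sarcolemma. It was at 768, 542 and 568 CPM in control and at 305, 330 and 137 CPM in miDrp1KO replicates, with no overlap. The difference in *Plec* was, by the quasi-likelihood test of edgeR on the log2 scale, −1.28 (standard error 0.32), with an unadjusted p of 0.00236 and a Benjamini-Hochberg adjusted p of 0.362. Its adjusted p was under 0.05 in all 6 DESeq2 settings and in no other alternative. *Dst*, a further cytolinker gene, had a log2 fold change of −0.94, and *Vcl*, the gene of vinculin at the costamere, one of −0.47. Without miDrp1KO replicate 3 they were −0.57 and −0.27, and *Vcl* then missed an unadjusted p of 0.05 in edgeR's test. Both genes missed it without control replicate 1 and without control replicate 3. *Krt19*, a keratin of costameres, was higher by 1.52 on the log2 scale, at the low levels of 0.434 ± 0.246 CPM in control and 1.12 ± 0.186 CPM in miDrp1KO muscle (SD, n = 3). Without control replicate 3 that value was 0.97 (unadjusted p = 0.0891 in edgeR's test), and it also missed that threshold without miDrp1KO replicate 2 and without miDrp1KO replicate 3.

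Of 14 other PDZ-LIM and LIM genes, all tested, 6 were lower and 8 were higher. The median of the list was 0.19 on the log2 scale. At an unadjusted p under 0.05, 2 were lower and 1 was higher by edgeR, and 0 had an adjusted p under 0.05, whereas DESeq2 at its defaults called 1, *Fhl3*, as lower. The adjusted p of *Fhl3* was 0.0450 at these defaults, and it was under 0.05 in 4 of the 6 DESeq2 settings and not in the pair without independent filtering (0.131 and 0.0729). *Fhl3*, a member of the family with LIM domains in series, was at 84.0, 88.7 and 101 CPM in control and 64.2, 53.4 and 54.6 CPM in miDrp1KO replicates, a log2 fold change of −0.67. *Nrap*, whose product binds actin and vinculin at myotendinous junctions, had a log2 fold change of −0.71. It was −0.37 without control replicate 1 (unadjusted p = 0.251 in edgeR's test) and kept an unadjusted p under 0.05 only when control replicate 2 or miDrp1KO replicate 1 was the library left out. *Pdlim2*, a PDZ-LIM gene that is no member, was higher by 1.04 on the log2 scale, from 1.29 ± 0.441 to 2.57 ± 0.393 CPM (SD, n = 3), and missed an unadjusted p of 0.05 without control replicate 3. *Csrp2* had the next lowest p of the list and did not pass, with a log2 fold change of 0.43.

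Of 22 other Z-disc genes, all tested, 16 were lower and 5 of these had an unadjusted p under 0.05, with 0 higher at that threshold and a median of −0.43. By edgeR 0 had an adjusted p under 0.05, whereas DESeq2 at its defaults called 1 as lower. *Synpo2*, the gene of myopodin, had a log2 fold change of −0.75, and *Myoz3*, a calsarcin gene, one of −0.57. *Actn3*, the alpha-actinin of fast fibres, had a log2 fold change of −0.95 with overlapping groups. An unadjusted p under 0.05 in edgeR's test was lost by *Synpo2* without control replicate 1 and by *Myoz3* without control replicate 3, miDrp1KO replicate 2 or miDrp1KO replicate 3. *Actn3* lost it without any 1 of these 3 libraries and without control replicate 2. Without miDrp1KO replicate 1 the value for *Myoz3* was −0.86. Among the members *Synm* had the most negative value and *Ldb3* the next.

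**Figure D5:**
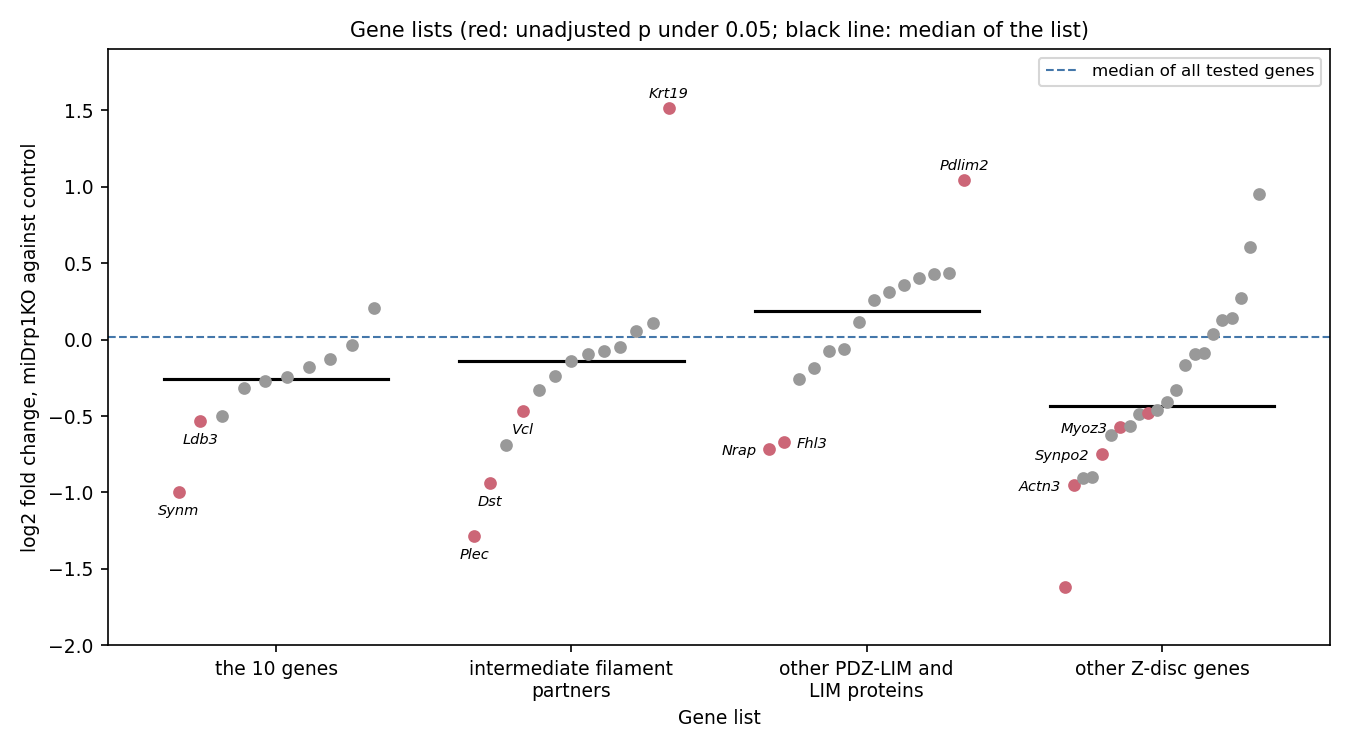
Log2 fold change of every tested gene of the 4 lists, miDrp1KO against control; 1 point per gene, red where the unadjusted p of edgeR is under 0.05 (most of these named), with a black line at the list's median and a dashed line at 0.02, the median of all tested genes. Medians are −0.26 for the 10 genes, −0.14 for the filament partners, 0.19 for other PDZ-LIM and LIM genes and −0.43 for other Z-disc genes.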

How the data were processed

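RNA was isolated from quadriceps muscle of 3 control and 3 miDrp1KO mice, and stranded total RNA libraries were made after ribosomal RNA depletion. The authors deposited raw counts per Entrez gene, from Rsubread alignments to GRCm38. The methods name a GRCm38 annotation version while the tables list Entrez identifiers, and reads on overlapping genes may have been split. Libraries were sequenced in pools whose members are not given in the sources used here. Groups follow the genotype labels, and replicate numbers follow the order of the samples. No sample column was left unused. Testing used edgeR 4.0.16 in R 4.3.3 (filterByExpr, TMM, robust quasi-likelihood fit) over 16483 genes, with Benjamini-Hochberg adjustment and a threshold of 0.05. The p-values of edgeR rest on the spread between 3 mice per group, moderated with that of all genes tested. Standard errors were derived from the F statistic. Exon lengths are those of GENCODE on GRCm38. Alternatives used DESeq2 1.42.0, limma 3.58.1 (voom), other normalizations, filters and covariates, an exon length correction and the omission of each library. The exon length correction and 5 of the 6 DESeq2 settings were added after the data were seen. Of the methods, the main edgeR fit was tested on simulated data. The 10 genes and all lists were chosen with earlier results of these data known. Named genes were the 10, *Dnm1l*, the 4 tested genes of lowest p in each other list, and the 5 genes of at least 10 CPM most correlated with *Des* and with *Vim*. Outside this rule stand genes that overlap a member and single marker genes (*Myh4*, *Myh7*, *Myh8*, *Tnnt1*, *Pvalb*, *C1qa*, *Adgre1*, *Mrc1*), picked after their values were seen. Of the genes this rule names, 2 are not reported here.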

Additional observations from a re-analysis of the deposited data

How the results depend on the processing

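The log2 fold change kept its sign in all 21 alternatives for 8 of the 10 genes. *Sync* turned positive under upper quartile normalization (0.048), under a minimum of 10 counts per library (0.0031) and with the slow fibre covariate (0.094). When 1 library was left out it ran from −0.21 to 0.12, and it was positive without control replicate 3 (0.0028) and without miDrp1KO replicate 2 (0.12). *Pdlim7* turned positive with the slow fibre covariate (0.0085) and ran from −0.20 to 0.053 when 1 library was left out, positive without miDrp1KO replicate 2. The number of members lower at an unadjusted p under 0.05 was 1 under upper quartile normalization and 1 with the ribosomal RNA covariate, as *Ldb3* no longer passed, and 1 to 3 when 1 library was left out. It was 3 without the filter on low counts and in the DESeq2 settings on genes with any count, where *Pdlim3* also passed. Over all genes the share lower at that threshold moved too, from 6.22% to 3.88% under upper quartile normalization, 4.58% with the ribosomal RNA covariate, 4.10% without the filter, 3.88% in those DESeq2 settings and 2.15 to 8.90% when 1 library was left out. The number without overlap was 2 with upper quartile normalization and 3 under a minimum of 10 counts per library. It was 5 without control replicate 1, control replicate 2 or miDrp1KO replicate 1, and 4 when any other library was left out. The share of all genes without overlap is given here for the main edgeR fit only, so these counts have no such share beside them. Groups separate more easily when 1 library is left out, so the counts of 5 and 4 are no measure of stability. The number with an adjusted p under 0.05 was 1 at the defaults of DESeq2, 1 with genes of any count at a filtering alpha of 0.05 and 1 with genes kept by filterByExpr at that alpha, each time *Synm*, and 0 in the other 3 DESeq2 settings. These settings called 82, 121 and 94 of all genes where *Synm* passed and 32, 55 and 35 where it did not, against 2 in edgeR. The 6 settings were run with the adjusted p of *Synm* in view, 5 of them are additions chosen after seeing the data, and the defaults were taken to stand for the planned DESeq2 test only after the others had been seen. The causes were not tested. No paired analysis was possible because the labels give the groups no shared replicate numbers. *Sync*, with 321 to 1394 counts per library, is the member with the lowest depth.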
